A study of Caenorhabditis elegans with 48 samples.

Results

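Ribosomal RNA carries methyl and acetyl groups that dedicated nuclear and nucleolar enzymes add while the subunits are being built. Base methyltransferases each modify one or a few fixed positions, the fibrillarin complex methylates ribose at many positions by using guide RNAs, and an acetyltransferase of the NAT10 family acetylates cytosines. In C. elegans these marks sit on the 18S RNA of the small subunit and the 26S RNA of the large one. Described here are 7 genes encoding such enzymes, out of 19454 genes in the mRNA-seq table, picked by symbol under a rule on known or homology-based activity that uses no measured value (the rule was set with earlier results of these data known). On 18S RNA act E02H1.1 (WBGene00008455, homologous to DIMT1, which dimethylates adenosines), C27F2.4 (WBGene00016166, the homologue of the guanine methyltransferase BUD23) and metl-5 (WBGene00008008, an adenosine methyltransferase of the METTL5 family). On 26S RNA act nsun-1 (WBGene00021073) and nsun-5 (WBGene00013151), which methylate cytosine. fib-1 (WBGene00001423) is fibrillarin, and nath-10 (WBGene00018866) is the NAT10 homologue. All 7 passed the filter on low counts in both assays and both experiments.

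The study measured polyadenylated RNA (mRNA-seq) and ribosome-protected footprints (Ribo-seq) in 5 groups of worms, each group sequenced in both assays. Starved worms were set against Fed worms, with 6 libraries per group and assay. Worms on RNAi against E02H1.1 and worms on RNAi against C27F2.4 were set against worms on the Empty_vector control, with 4 libraries per group and assay. RNAi lowers a transcript through double-stranded RNA of the same sequence, and Empty_vector is the control without such an insert. The labels give no strain, no age beyond young adult, no length of starvation and no time of RNAi. The title of the series places the work in inherited methylation of 18S rRNA and hormesis between generations. Nothing in the labels says that a group's libraries came from separate cultures, so the spread behind each p-value may be technical.

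Each mRNA-seq library held 19.2 to 22.8 M counts and each Ribo-seq library 3.91 to 11.7 M. Ribo-seq depth was 4.23 to 6.39 M under E02H1.1 RNAi and 7.35 to 11.7 M under C27F2.4 RNAi, against 5.78 to 8.66 M in Empty_vector. The label reads young adult, yet the markers of that stage were scarce: 6 vitellogenin transcripts, the yolk genes of adult hermaphrodites, summed to 1.44 to 4.16 CPM (the depth-scaled count) per mRNA-seq library, 4 adult cuticle genes to 0.492 to 2.22 CPM, and 25 major sperm protein genes to 0.865 to 2.06 CPM. By contrast 7 transcripts of the embryonic sheath and apical matrix summed to 3537 to 4794 CPM. Libraries differed little from the rest of their group, with an SD across genes of 0.0987 to 0.195 in log2 CPM, and the widest were the Ribo-seq libraries C27F2.4 A and Empty_vector C. Levels below are CPM after TMM scaling, computed apart for each experiment, and levels of different genes are not compared because no transcript lengths were used. A change in translational efficiency (TE) is how far footprints changed beyond mRNA, on the log2 scale, and a change is called where edgeR's adjusted p, over all genes tested, lies under 0.05.

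E02H1.1, the DIMT1 homologue, was the most strongly lowered of the 7 and lost transcript and footprints in its own knockdown (in whole worms, fewer cells of a type and less RNA per cell cannot be told apart). Its mRNA stood at 19.70, 20.77, 16.95 and 18.996 CPM in the E02H1.1 RNAi libraries A to D, at 58.5, 66.5, 62.2 and 60.8 CPM in the C27F2.4 RNAi libraries, and at 65.5, 67.6, 75.4 and 62.7 CPM in Empty_vector. The 4 E02H1.1 RNAi libraries lay far below all others, as was true against Empty_vector for 18.9% of all genes tested (groups that do not overlap, lower), and the other knockdown overlapped the control. The fitted change of -1.83 ± 0.07 (SE, edgeR adjusted p = 1.18e-16) left 28.2% of the Empty_vector level. It was the 7th lowest log2 fold change of 13637 genes tested.

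Footprints on E02H1.1 stood at 10.2, 10.9, 8.73 and 15.0 CPM in its RNAi libraries, from 51, 66, 37 and 96 counts. They stood at 42.5, 45.2, 46.1 and 41.7 CPM under C27F2.4 RNAi and at 47.6, 41.2, 47.6 and 46.4 CPM in Empty_vector. Here too the knockdown libraries were separate from the rest, as they were from Empty_vector for 11.6% of all genes on the lower side, with library D the highest of the 4. The change of -1.99 ± 0.11 (edgeR adjusted p = 4.42e-11) left 25.1% of the control level and was the 3rd lowest of 10736 genes tested. Footprints and mRNA of E02H1.1 thus fell by similar amounts, and the TE change was -0.17 ± 0.14 (adjusted p = 0.492), with log2 footprints over mRNA at -0.95, -0.93, -0.96 and -0.34 in the 4 knockdown libraries and -0.46, -0.72, -0.66 and -0.44 in Empty_vector. Library D alone lay above the control libraries, and without it the TE change was -0.37 (adjusted p = 0.127). Under C27F2.4 RNAi, E02H1.1 did not pass in mRNA (-0.13 ± 0.07, adjusted p = 0.214), footprints (-0.06 ± 0.08) or TE (0.07 ± 0.11).

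In the feeding experiment E02H1.1 passed the test in no measure. Its mRNA ran from 52.7 over a median of 57.8 to 59.1 CPM in Starved and from 53.9 over 58.6 to 65.3 CPM in Fed, and the 2 groups overlapped (-0.07 ± 0.05, edgeR adjusted p = 0.312). Footprints ran from 25.4 over 29.3 to 31.9 CPM in Starved and from 26.99 over 28.28 to 32.43 CPM in Fed (-0.01 ± 0.08). TE was at 0.07 ± 0.09.

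**Figure D1:**
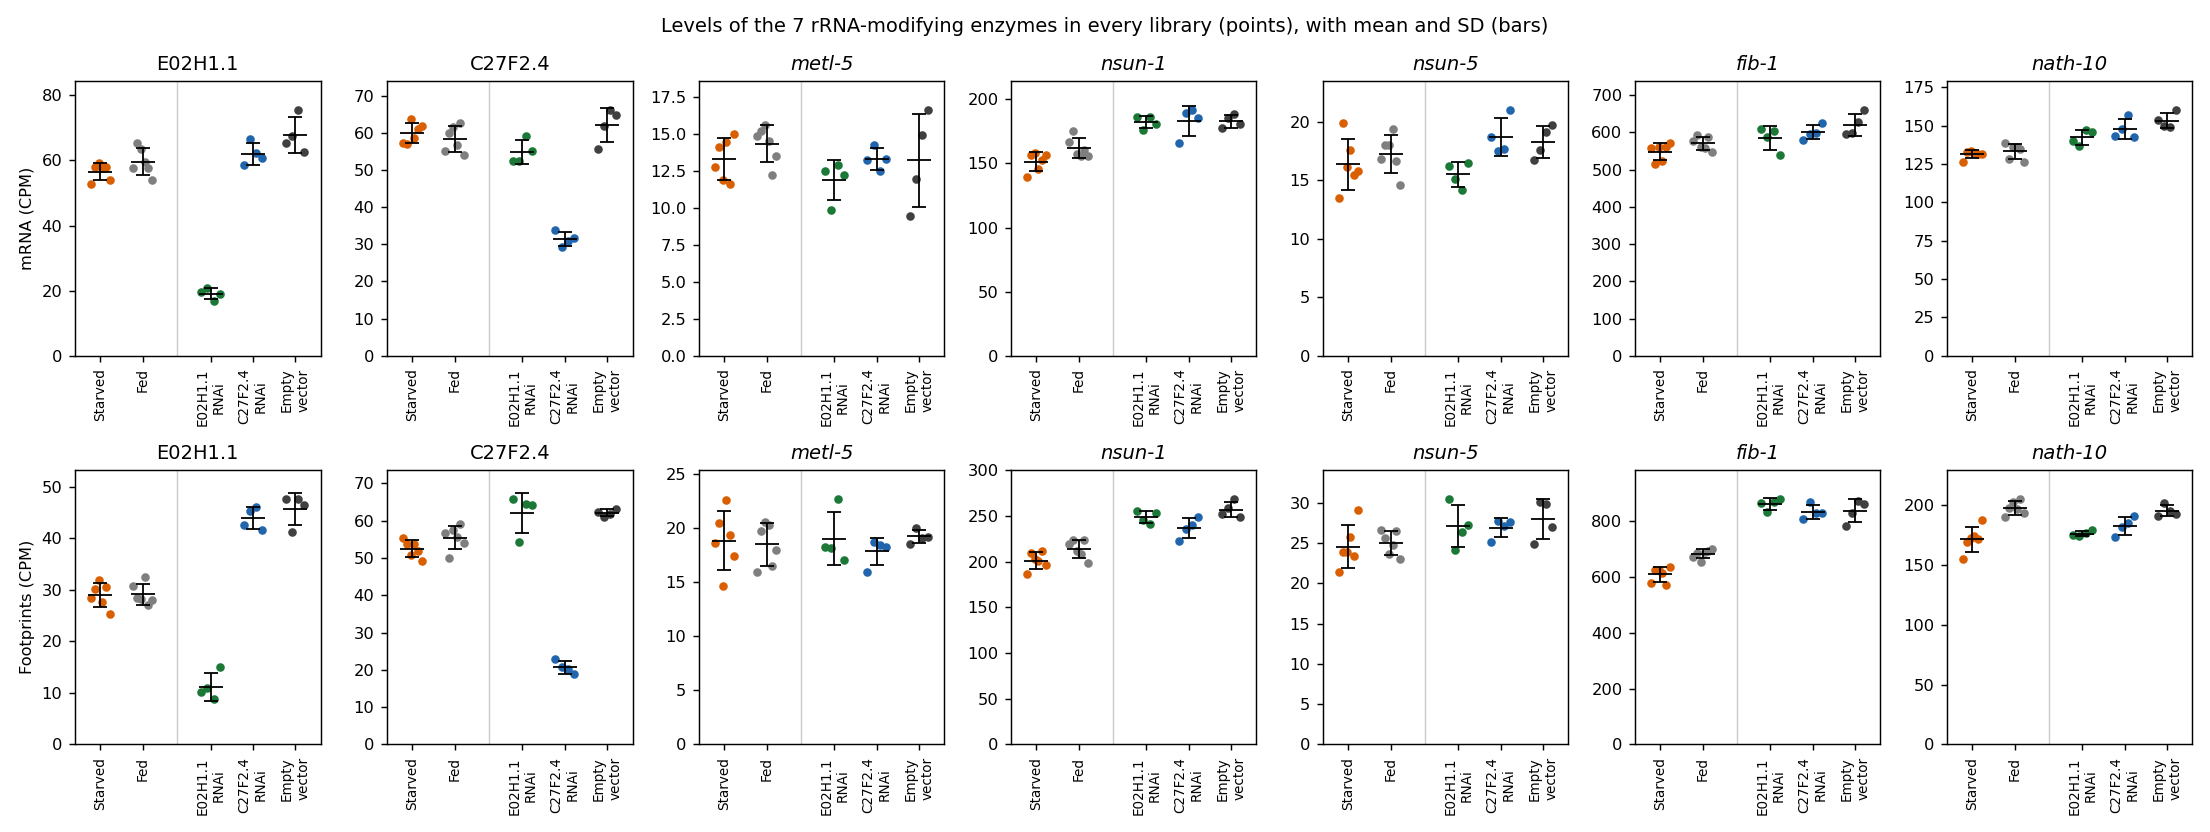
CPM of the 7 enzymes in every library, with mRNA in the upper row and footprints in the lower row. Points are libraries, bars the group mean and SD (n = 6 for Starved and Fed, n = 4 for the RNAi and control groups), and each y axis starts at 0. The knocked-down gene stands apart in its own RNAi group in both assays (E02H1.1 mRNA at 16.95 to 20.77 CPM against 62.7 to 75.4 CPM in Empty_vector), while the other 5 genes stay near the control level.

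C27F2.4, the BUD23 homologue, kept a larger share of its transcript than of its footprints in its own knockdown. Its mRNA stood at 34.0, 29.3, 30.8 and 31.7 CPM in the C27F2.4 RNAi libraries A to D and at 55.80, 61.93, 66.05 and 64.71 CPM in Empty_vector. The groups were separate, as for 7.83% of all genes on the lower side, and 50.7% of the control level remained (-0.98 ± 0.07, edgeR adjusted p = 1.32e-10), the 70th lowest change of 13637. Footprints stood at 22.9, 20.8, 20.2 and 18.8 CPM in the C27F2.4 RNAi libraries and at 62.4, 61.1, 61.8 and 63.1 CPM in Empty_vector. That change of -1.59 ± 0.08 (adjusted p = 1.54e-12) left 33.2% and was the lowest of all 10736 genes tested. The groups were separate on the lower side for 6.48% of them.

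Footprints of C27F2.4 therefore fell further than its mRNA. The log2 of footprints over mRNA stood at -0.57, -0.50, -0.61 and -0.75 in the C27F2.4 RNAi libraries and at 0.16, -0.02, -0.10 and -0.04 in Empty_vector. All 4 knockdown libraries lay below all 4 controls, as for 5.92% of all genes. The TE change of -0.61 ± 0.10 (edgeR adjusted p = 0.00367) was the 34th lowest of 10714 genes, and it passed on leaving out any 1 of the 8 libraries, with adjusted p up to 0.0334. For E02H1.1 no such drop passed the test, as given above. Whether the 2 targets differ in this respect was not tested.

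**Figure D2:**
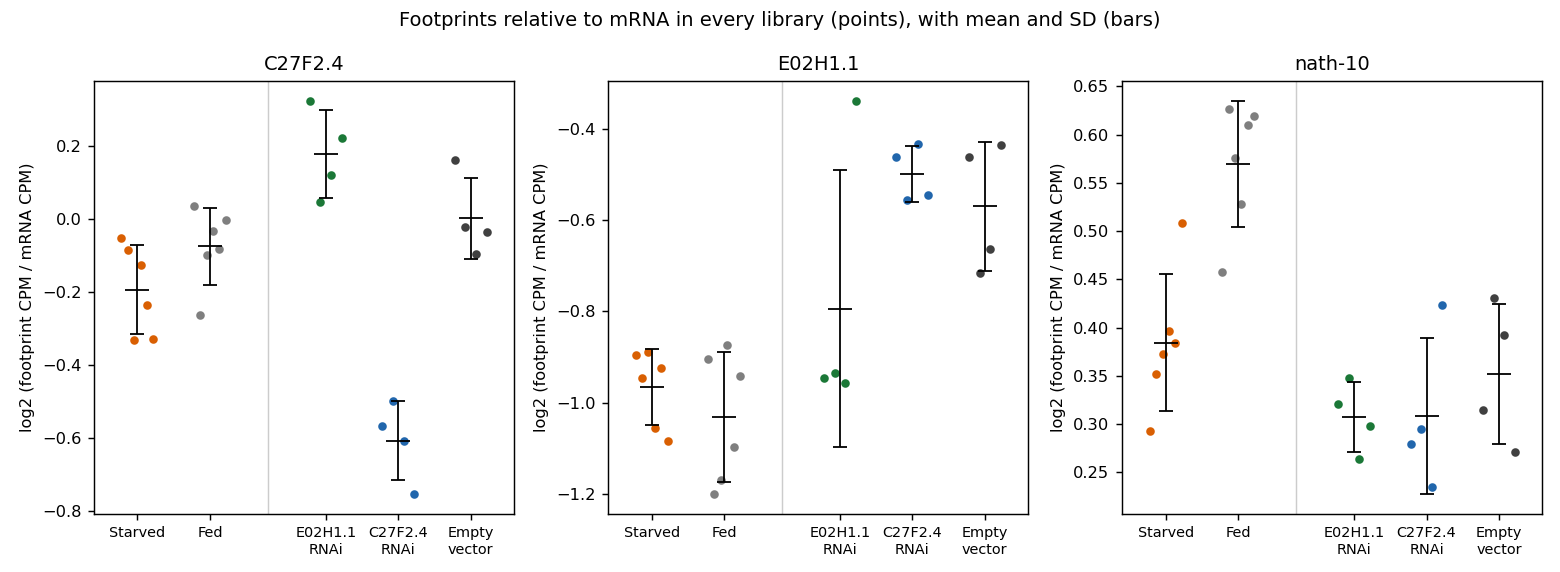
Footprints relative to mRNA, as log2 of footprint CPM over mRNA CPM of same-named libraries, for C27F2.4, E02H1.1 and nath-10. Points are libraries and bars the group mean and SD (n = 6 for Starved and Fed, n = 4 for the other groups), and each y axis has its own range. C27F2.4 lies at -0.75 to -0.50 in its own RNAi libraries and at -0.10 to 0.16 in Empty_vector, library D of E02H1.1 RNAi stands alone at -0.34 for E02H1.1, and nath-10 is lower in 5 of the 6 Starved libraries than in every Fed library.

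In the other knockdown C27F2.4 was slightly lower in mRNA and level in footprints. Its mRNA stood at 52.47, 52.39, 59.24 and 55.02 CPM under E02H1.1 RNAi, overlapping the 55.80 to 66.05 CPM of Empty_vector. The change of -0.18 ± 0.07 passed the test (edgeR adjusted p = 0.0317), but it no longer passed on leaving out any 1 of 6 libraries: Empty_vector B, C or D, or E02H1.1 A, B or D (adjusted p from 0.0535 to 0.0997). Footprints stood at 65.7, 54.2, 64.4 and 64.2 CPM under E02H1.1 RNAi and differed from Empty_vector by 0.00 ± 0.07. In the feeding experiment C27F2.4 mRNA ran from 57.1 over a median of 59.8 to 63.7 CPM in Starved and from 54.1 over 58.4 to 62.6 CPM in Fed (0.04 ± 0.05, adjusted p = 0.628). Its footprints ran from 49.2 over 52.7 to 55.3 CPM in Starved and from 49.96 over 56.05 to 59.13 CPM in Fed (-0.08 ± 0.06, adjusted p = 0.365). Both pairs of groups overlapped, and TE was at -0.12 ± 0.08 (adjusted p = 0.406).

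metl-5, the third 18S enzyme, passed the test in no comparison and no measure. Its mRNA was thinly counted, with 191 to 355 counts per library, and stood at 12.5, 9.87, 12.9 and 12.2 CPM under E02H1.1 RNAi, at 13.2, 14.2, 12.5 and 13.3 CPM under C27F2.4 RNAi and at 9.47, 11.9, 14.9 and 16.6 CPM in Empty_vector. The 4 control libraries alone spanned all the others, with a coefficient of variation of 23.8%. Footprints stood at 18.2, 18.1, 22.7 and 17.1 CPM under E02H1.1 RNAi, at 15.9, 18.8, 18.4 and 18.2 CPM under C27F2.4 RNAi and at a steadier 18.56, 20.04, 19.07 and 19.19 CPM in Empty_vector. The changes were -0.03 ± 0.10 and -0.11 ± 0.10 against Empty_vector. In the feeding experiment the mRNA ran from 11.6 over 13.4 to 15.0 CPM in Starved and from 12.2 over 14.7 to 15.6 CPM in Fed (-0.11 ± 0.09, edgeR adjusted p = 0.412), and footprints changed by 0.05 ± 0.10. The standard errors of its mRNA changes ran from 0.09 to 0.14, wider than for most other members.

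nsun-1, a cytosine methyltransferase of 26S RNA known in worms to affect body size and egg production, was measured far more precisely. Its mRNA stood at 185.9, 176.0, 186.0 and 180.9 CPM under E02H1.1 RNAi, at 165.7, 189.6, 191.3 and 185.2 CPM under C27F2.4 RNAi and at 177.4, 185.2, 188.3 and 180.6 CPM in Empty_vector. All 3 groups overlapped, and the fitted changes were -0.01 ± 0.05 and 0.00 ± 0.05. Footprints stood at 255.7, 246.0, 241.3 and 253.2 CPM under E02H1.1 RNAi, at 223.0, 235.3, 239.9 and 248.4 CPM under C27F2.4 RNAi and at 251.8, 258.9, 268.3 and 248.8 CPM in Empty_vector. Every C27F2.4 RNAi library lay below every control library, narrowly, as for 6.48% of all genes. The change of -0.12 ± 0.05 did not pass over all genes (edgeR adjusted p = 0.130).

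In the feeding experiment nsun-1 was a little lower in both assays without passing the test. Its mRNA ran from 139.0 over 154.4 to 158.4 CPM in Starved and from 156.0 over 158.8 to 175.1 CPM in Fed, so the groups overlapped at their edges (-0.10 ± 0.04, edgeR adjusted p = 0.0772). Scaled by library totals alone the change was -0.13 and passed (adjusted p = 0.0161), and it also passed without Starved 3 (-0.12, adjusted p = 0.0424). Footprints ran from 186.3 over 201.6 to 211.3 CPM in Starved and from 198.3 over 215.6 to 223.8 CPM in Fed (-0.09 ± 0.05, adjusted p = 0.131), and they passed without Fed 6 (-0.12, adjusted p = 0.0365). TE was level at 0.01 ± 0.06.

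nsun-5, the second 26S cytosine methyltransferase, was low in transcript in E02H1.1 RNAi relative to the control, short of the threshold. Its mRNA stood at 16.2, 15.1, 14.1 and 16.4 CPM under E02H1.1 RNAi, at 18.7, 17.5, 17.7 and 20.9 CPM under C27F2.4 RNAi and at 16.7, 17.5, 19.1 and 19.7 CPM in Empty_vector. Every E02H1.1 RNAi library lay below every Empty_vector library, as for 18.9% of all genes. Against C27F2.4 RNAi the difference was -0.27 ± 0.10 and did not pass (edgeR adjusted p = 0.108). The change against Empty_vector was -0.24 ± 0.10 (edgeR adjusted p = 0.0550), and the call turned with the method, since DESeq2's Wald test (adjusted p = 0.0387) and the replicate block (adjusted p = 0.0392) passed it, as did leaving out Empty_vector A (-0.28, adjusted p = 0.0425). Footprints stood at 30.5, 24.2, 26.4 and 27.2 CPM under E02H1.1 RNAi, at 25.1, 27.7, 27.2 and 27.7 CPM under C27F2.4 RNAi and at 24.94, 30.06, 29.90 and 27.04 CPM in Empty_vector. There the groups overlapped, and the changes were -0.05 ± 0.09 and -0.06 ± 0.08. In the feeding experiment nsun-5 mRNA ran from 13.4 to 19.9 CPM in Starved and from 14.6 to 19.4 CPM in Fed, and footprints from 21.5 to 29.1 CPM in Starved and from 23.02 to 26.62 CPM in Fed. These groups overlapped, and the differences of -0.07 ± 0.09 in mRNA, -0.03 ± 0.08 in footprints and 0.04 ± 0.12 in TE did not pass.

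fib-1, the methyltransferase of the box C/D guide RNA complex and the most counted of the 7, lost footprints in Starved. Footprints ran from 572.0 over a median of 620.2 to 634.9 CPM in Starved and from 654.0 over 687.0 to 701.3 CPM in Fed. The highest Starved library lay below the lowest Fed library, as for 6.1% of all genes, and the change of -0.17 ± 0.04 passed the test (edgeR adjusted p = 0.00264, n = 6 per group). Its mRNA ran from 516.0 over 559.1 to 570.4 CPM in Starved and from 547.0 over 568.3 to 593.1 CPM in Fed. The mRNA groups overlapped (-0.06 ± 0.04, adjusted p = 0.253), and neither did TE pass (-0.11 ± 0.05, adjusted p = 0.259). The footprint call was kept in all 12 fits that left out 1 library, with changes from -0.19 to -0.15.

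In the knockdowns fib-1 did not move past the test. Its mRNA stood at 609.2, 587.2, 603.0 and 539.9 CPM under E02H1.1 RNAi, at 580.1, 595.2, 598.9 and 625.8 CPM under C27F2.4 RNAi and at 596.7, 596.8, 627.0 and 658.6 CPM in Empty_vector (-0.08 ± 0.04 and -0.05 ± 0.04). Footprints stood at 865.2, 830.4, 868.3 and 878.2 CPM under E02H1.1 RNAi, at 805.7, 868.4, 829.1 and 828.5 CPM under C27F2.4 RNAi and at 780.6, 829.2, 873.0 and 861.6 CPM in Empty_vector. All of these groups overlapped, and the footprint changes were 0.04 ± 0.05 and -0.01 ± 0.05. TE of fib-1 was higher in every E02H1.1 RNAi library than in every control library (0.50 to 0.70 against 0.39 to 0.48 in log2 footprints over mRNA), as for 11.7% of all genes, but its change of 0.13 ± 0.06 did not pass over all genes (edgeR adjusted p = 0.211).

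nath-10, which encodes the acetyltransferase and in worms is also known for natural variation that affects germline and vulval traits, lost footprints in Starved and under E02H1.1 RNAi. Footprints ran from 154.9 over a median of 172.5 to 187.4 CPM in Starved and from 190.2 over 197.2 to 205.3 CPM in Fed. The groups did not overlap, as for 6.1% of all genes on the lower side, and the change was -0.20 ± 0.05 (edgeR adjusted p = 8.57e-04, n = 6 per group). Its mRNA hardly differed, running from 126.4 over 132.1 to 133.8 CPM in Starved and from 126.4 over 135.4 to 138.5 CPM in Fed (-0.02 ± 0.04, adjusted p = 0.741). TE fell by 0.18 on the log2 scale (SE 0.06, adjusted p = 0.0395), with log2 footprints over mRNA from 0.29 to 0.51 in Starved and from 0.46 to 0.63 in Fed. That TE call rested on the full set of libraries: it was lost on leaving out any 1 of 9 of the 12 (Starved 1 to 5 and Fed 2 to 5, with changes from -0.19 to -0.16), under the replicate block (adjusted p = 0.0746) and with library totals alone (adjusted p = 0.0839).

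Under E02H1.1 RNAi nath-10 footprints stood at 175.2, 174.2, 176.6 and 179.4 CPM, under C27F2.4 RNAi at 173.9, 181.7, 184.9 and 191.5 CPM, and in Empty_vector at 191.4, 202.2, 195.7 and 193.1 CPM. All E02H1.1 RNAi libraries lay below the control libraries, as for 11.6% of all genes. The change of -0.15 ± 0.05 passed the test (edgeR adjusted p = 0.0258), though not without Empty_vector B (-0.13, adjusted p = 0.0779). Under C27F2.4 RNAi the highest library reached just above the lowest control (-0.10 ± 0.04, adjusted p = 0.230). nath-10 mRNA stood at 140.2, 136.9, 147.1 and 146.0 CPM under E02H1.1 RNAi, at 143.3, 148.0, 157.2 and 142.8 CPM under C27F2.4 RNAi and at 153.9, 150.0, 149.1 and 160.0 CPM in Empty_vector. The E02H1.1 RNAi libraries again lay below all controls, as for 18.9% of all genes in mRNA. Neither mRNA change passed (-0.10 ± 0.05, edgeR adjusted p = 0.0727, and -0.05 ± 0.05, adjusted p = 0.498). TE did not pass either, at -0.05 ± 0.06 under E02H1.1 RNAi (edgeR adjusted p = 0.703) and -0.04 ± 0.06 under C27F2.4 RNAi (adjusted p = 0.827).

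Marker lists also differed between these groups. Of 18 germline markers, the 16 in the Ribo-seq table summed to 1488 to 1831 CPM in Starved against 1875 to 2205 CPM in Fed, and the 17 in the mRNA-seq table to 1952 to 2394 CPM in Starved against 2179 to 2666 CPM in Fed. Under E02H1.1 RNAi the footprint sum was 1179 to 1472 CPM against 1374 to 1672 CPM in Empty_vector, and the mRNA sum 1320 to 1524 CPM against 1528 to 1873 CPM. In Starved 13 of these 16 genes fell in footprints, where 14.7% of all genes fell, with a median of -0.34. Under E02H1.1 RNAi 2 of 16 passed as lower in footprints, where 9.23% of all genes did, but all 16 lay below 0, with a median of -0.24. Of these, 9 had an unadjusted p under 0.05 by edgeR, where 3624 of 10736 genes tested had. In mRNA under E02H1.1 RNAi 6 of 17 fell and 0 rose, where 19.6% of all genes fell, with a median of -0.20. The 7 genes of the embryonic sheath and apical matrix went the other way in footprints of Starved: 3 of 7 rose, where 13.9% of all genes rose, with a median of 0.11 and a sum of 10403 to 11103 CPM in Starved against 9311 to 10580 CPM in Fed. In TE of Starved 2 of these 7 rose, where 2.54% of all genes did. Their mRNA did not rise in Starved: 0 of 7 passed, where 21.9% of all genes did, and 5 lay below 0, with a median of -0.07. Of the 7, 2 had an unadjusted p under 0.05 by edgeR. The mRNA sum was 3537 to 3838 CPM in Starved against 3590 to 3994 CPM in Fed. None of these germline and sheath genes was at 0 in a whole group, and their part in the result was not tested.

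The enzymes that passed are counted here by comparison, beside the share of all genes tested that passed. In mRNA, 0 of 7 passed between Starved and Fed (edgeR, with 1 of 7 at an unadjusted p under 0.05 and 0 by DESeq2's Wald test), where 21.9% of all genes tested passed. In footprints 2 of 7 passed, both lower, against 28.6% of all genes in either direction, and in TE 1 of 7, against 6.29%. Under E02H1.1 RNAi 2 of 7 passed in mRNA, both lower and one of them the target, against 39.5% of all genes. In footprints 2 of 7 passed, again lower and including the target, against 20%, and in TE 0 of 7 (0 at an unadjusted p under 0.05 and 0 by DESeq2's Wald test), against 10.8%. Under C27F2.4 RNAi the target alone passed, with 13.7% of all genes called in mRNA, 7.08% in footprints and 0.877% in TE.

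No enzyme rose in any of these comparisons. The median change of the 5 enzymes that were not targeted was -0.07 in mRNA and -0.09 in footprints of Starved, against 0.00 and 0.01 over all genes tested. Under E02H1.1 RNAi it was -0.10 in mRNA and -0.05 in footprints, with -0.01 and 0.00 over all genes, and under C27F2.4 RNAi it was 0.00 and -0.10, with 0.00 for both over all genes. In TE the median of these 5 was 0.01 in Starved, 0.13 under E02H1.1 RNAi and -0.09 under C27F2.4 RNAi, against 0.01, 0.03 and 0.02 over all genes. The knockdown comparisons share their Empty_vector libraries.

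**Figure D3:**
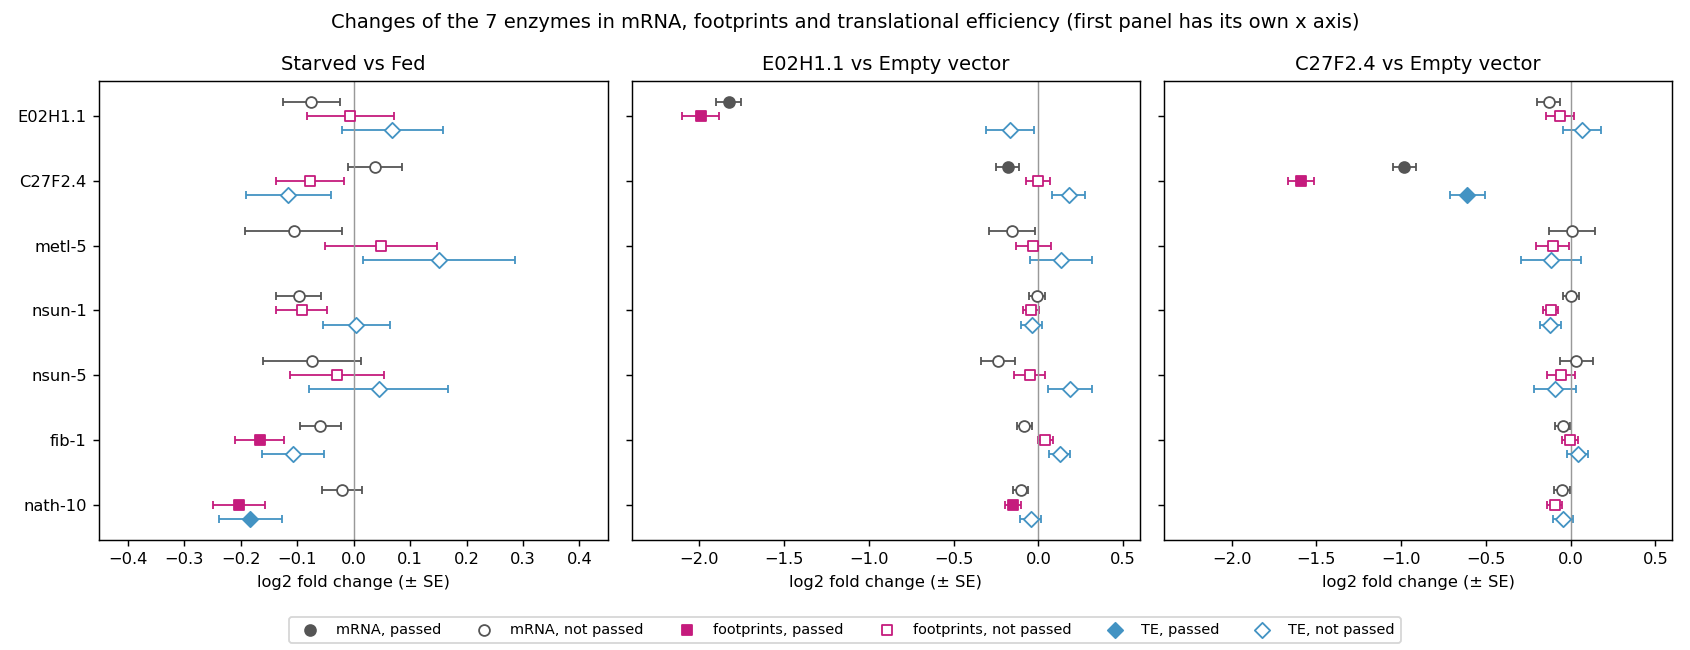
Log2 fold changes with SE of the 7 enzymes in mRNA, footprints and TE, for Starved against Fed (n = 6 per group) and for each knockdown against Empty_vector (n = 4 per group). Filled symbols passed an adjusted p of 0.05 over all genes tested, and the first panel has a narrower axis. Beyond the targets in their own knockdowns, the filled symbols are C27F2.4 mRNA (-0.18) and nath-10 footprints (-0.15) under E02H1.1 RNAi and fib-1 footprints (-0.17), nath-10 footprints (-0.20) and nath-10 TE (-0.18) in Starved.

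Set directly against each other, the 2 knockdowns differed in the targets and in no other enzyme. E02H1.1 mRNA was lower under E02H1.1 RNAi than under C27F2.4 RNAi by -1.70 ± 0.07 (edgeR adjusted p = 9.14e-16) and its footprints by -1.93 ± 0.11 (adjusted p = 3.76e-11). C27F2.4 was higher under E02H1.1 RNAi by 0.80 ± 0.07 in mRNA (adjusted p = 7.65e-09), by 1.59 ± 0.08 in footprints (adjusted p = 3.19e-12) and by 0.79 ± 0.10 in TE (adjusted p = 1.20e-04). Of all genes tested 3.26% passed in mRNA, 1.25% in footprints and 0.0467% in TE between the knockdowns. Of the 5 other enzymes, none passed in mRNA (edgeR, 1 at an unadjusted p under 0.05), and nsun-5 had the widest gap, at -0.27 ± 0.10 in mRNA (adjusted p = 0.108) and 0.28 ± 0.13 in TE (adjusted p = 0.550).

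Several genes that work with these enzymes fell in footprints of Starved. Of 9 proteins of the guide RNA complexes and cofactors, 5 fell in footprints and 0 rose, where 14.7% of all genes tested fell. They were nol-56 (-0.23 ± 0.04) and nol-58 (-0.19 ± 0.05), which sit beside fibrillarin in the box C/D complex, snu-13 (-0.13 ± 0.05) of the same complex, the pseudouridine synthase gene dkc-1 (-0.15 ± 0.04) and dao-5, a Nopp140-like nucleolar protein (-0.33 ± 0.05, edgeR adjusted p = 3.90e-07). Their mRNA did not pass, and of the 9 genes in mRNA 2 fell, garr-1 (-0.15 ± 0.04) and nola-3 (-0.16 ± 0.04), both of the H/ACA complex. TE fell for dao-5 (-0.41 ± 0.06), nol-56 (-0.29 ± 0.06) and nol-58 (-0.21 ± 0.06) and rose for nola-3 (0.28 ± 0.07), where 3.75% of all genes fell and 2.54% rose. C04H5.1, the homologue of the TRMT112 cofactor shared by the BUD23 and METTL5 enzymes, passed in none of the 3 comparisons with Fed or Empty_vector.

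Of 6 other rRNA methyltransferase genes, 1 fell in footprints of Starved, H06I04.3, the homologue of FTSJ3 (-0.32 ± 0.05, edgeR adjusted p = 1.29e-06), and its TE fell too (-0.27 ± 0.06). Of 27 tested genes of rRNA synthesis and processing, 15 fell in footprints of Starved, where 14.7% of all genes fell, and 0 rose, with a median of -0.16 against 0.01 over all genes. In the same footprints 13 of 16 germline markers fell and 3 of 7 sheath genes rose, as given above, and their part in the falls of this list and of the complex genes was not tested. The nucleolin gene nucl-1 (-0.34 ± 0.04) and the pre-rRNA processing gene toe-1 (-0.31 ± 0.05) were among them. In mRNA of the same 27, 4 rose and 5 fell, where 11.8% of all genes rose and 10.2% fell, and rpoa-2 of RNA polymerase I (-0.25 ± 0.05) and the exonuclease gene xrn-2 (-0.22 ± 0.04) fell furthest. lpd-7 (0.23 ± 0.03) and nst-1 (0.17 ± 0.03) rose in mRNA and fell in footprints (-0.36 ± 0.05 and -0.20 ± 0.04), and TE of lpd-7 fell by 0.59 on the log2 scale (SE 0.06).

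Under E02H1.1 RNAi members of these lists fell in mRNA as well. In mRNA 4 of 9 complex and cofactor genes fell, with snu-13 at -0.20 ± 0.04 and Y48A6B.3, the NHP2 homologue, at -0.19 ± 0.05, and 0 rose, where 19.6% of all genes fell. Of the other methyltransferases 2 of 6 fell, emg-1 (-0.26 ± 0.07, edgeR adjusted p = 0.00690), which acts on 18S RNA, and F33A8.4, the ZCCHC4 homologue (-0.19 ± 0.06). In footprints 1 of 9 and 0 of 6 passed, and dao-5 was the one that fell (-0.25 ± 0.05), where 9.23% of all genes fell (of the 6, 1 had an unadjusted p under 0.05 by edgeR). TE rose for snu-13 (0.27 ± 0.06), Y48A6B.3 (0.25 ± 0.08) and emg-1 (0.30 ± 0.10), where 5.59% of all genes rose. It fell for 1 of the 9 complex and cofactor genes, where 561 of 10714 genes tested fell. Of the 27 synthesis and processing genes 4 fell and 2 rose in TE, with a median of -0.04 against 0.03 over all genes. Of the 27 synthesis and processing genes 8 fell in mRNA and 5 in footprints, including in mRNA the RNA polymerase I subunit gene rpac-19 (-0.40 ± 0.07) and the helicase gene ruvb-1 (-0.25 ± 0.05) and in footprints the polymerase I initiation factor gene tif-1A (-0.38 ± 0.07) and ngp-1 (-0.33 ± 0.06), which encodes a nucleolar GTPase.

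Under C27F2.4 RNAi the lists held few calls. In mRNA snu-13 (-0.15 ± 0.04, edgeR adjusted p = 0.0192) and rpac-19 (-0.22 ± 0.07) fell, where 5.56% of all genes fell, and in footprints tif-1A (-0.33 ± 0.07) and ngp-1 (-0.22 ± 0.06) fell, where 2.11% did. TE of tif-1A fell by 0.35 (SE 0.07, adjusted p = 0.0225). Genes of methyl donor supply were measured in 5 of 8 cases. The S-adenosylmethionine synthetase gene sams-1 rose in mRNA in all 3 comparisons: 0.15 ± 0.04 in Starved, 0.27 ± 0.06 under E02H1.1 RNAi and 0.28 ± 0.06 under C27F2.4 RNAi. Its footprints rose in both knockdowns (0.23 ± 0.07 and 0.30 ± 0.06). The methylenetetrahydrofolate reductase gene mthf-1 rose under C27F2.4 RNAi in mRNA (0.14 ± 0.05) and footprints (0.23 ± 0.05). The S-adenosylhomocysteine hydrolase gene ahcy-1 rose in mRNA of Starved (0.23 ± 0.04) while its TE fell (-0.35 ± 0.07), and its footprints fell under E02H1.1 RNAi (-0.21 ± 0.05). mel-32, a serine hydroxymethyltransferase, fell under E02H1.1 RNAi in mRNA (-0.33 ± 0.05) and footprints (-0.26 ± 0.05) and in footprints of Starved (-0.27 ± 0.05).

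**Figure D4:**
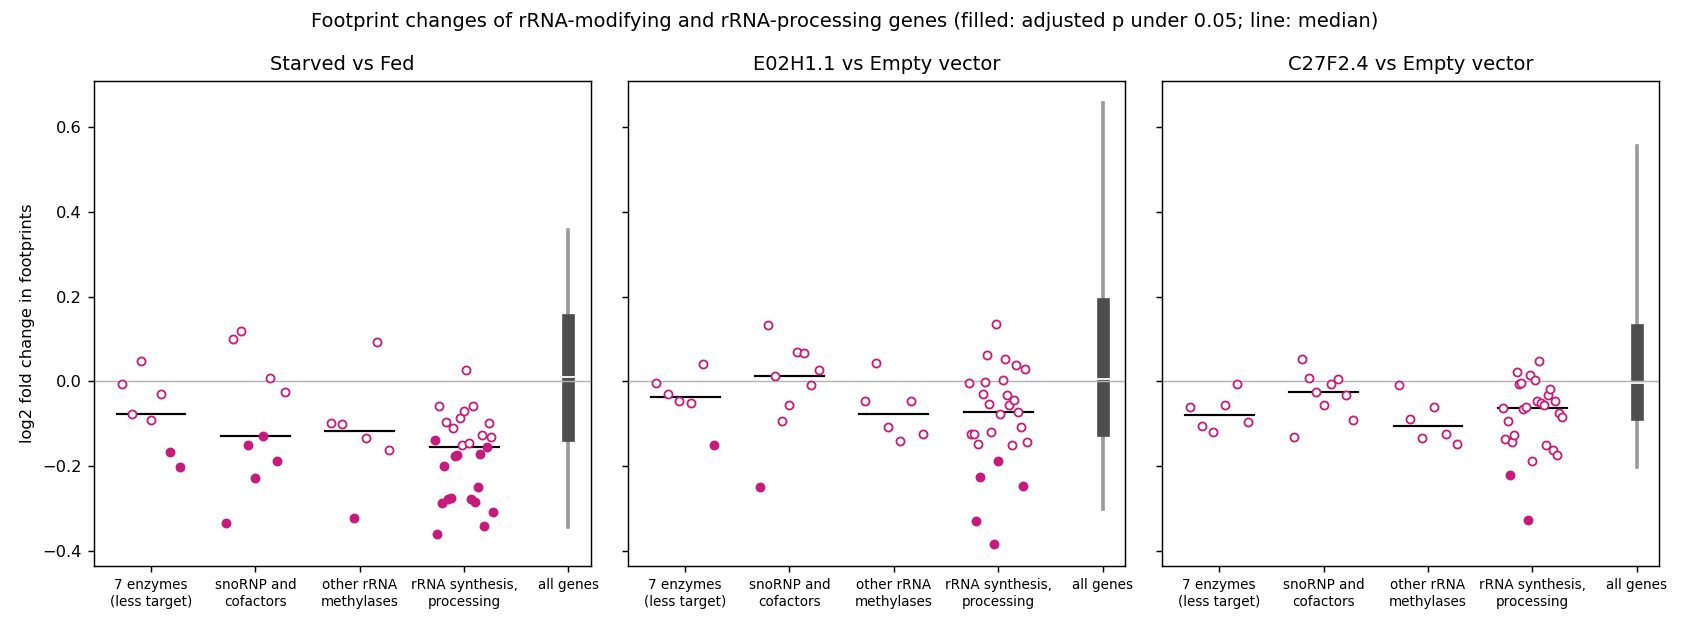
Log2 fold change in footprints of the 7 enzymes (without the targeted one in its own knockdown) and of genes that work with them, for Starved against Fed and for each knockdown against Empty_vector. Each point is a gene, filled where its adjusted p lay under 0.05, lines are list medians, and the grey bars span the middle 90% and the dark bars the middle 50% of all genes tested. In Starved most points lie below 0 and 15 of 27 synthesis and processing genes are filled, all lower, where 14.7% of all genes fell. Under E02H1.1 RNAi 5 are filled, where 9.23% of all genes fell, and under C27F2.4 RNAi 2, where 2.11% did.

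Across the 24 mRNA-seq libraries, each experiment centred on its own mean, Pearson's r of log2 CPM between pairs ran from -0.27 (E02H1.1 with C27F2.4) to 0.59 (E02H1.1 with nsun-5), and the libraries share groups and depth. Among 10564 genes the closest to E02H1.1 were mel-32 (r = 0.87), rbbp-5 (0.86) and dhod-1 (0.86), and the closest to C27F2.4 were lbp-3 (0.77), nlp-48 (0.77) and F18E3.13 (0.74). The libraries of each target's own knockdown are among the 24 points. The nearest gene to metl-5 was B0207.6 (0.73), to nsun-1 ZK1053.4 (0.83), to nsun-5 ilkp-1 (0.78), to fib-1 K08D12.3 (0.76) and to nath-10 Y41D4A.3 (0.81). None of the 7 was among the 3 nearest genes of another.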

How the data were processed

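The deposited mRNA-seq and Ribo-seq tables hold whole-number counts per gene, 1 column per library and no scaling. The submitters' processing notes name cutadapt, without a version or role. Aligner, counter, build, annotation and strand handling: not given in the sources used here, so overlapping or antisense genes were not examined. The authors' deposited log2 TE values, for 10700 genes, matched, within 1e-09 in all 256800 cases, the log2 ratio of footprint to mRNA counts after adding 1 to each, and were used only for this pairing of columns. Symbols came from a reference table that named 19414 of 19454 genes. Knockdown columns carry letters where labels carry numbers, so those libraries are named by letter.

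The fits covered all genes and used edgeR 4.0.16 under R 4.3.3 (with filterByExpr at a minimum count of 10, TMM, robust quasi-likelihood test, two-sided, Benjamini-Hochberg adjustment over all genes), Starved and Fed in 1 fit and the 3 knockdown groups in another. TE was the interaction of assay and group in 1 model over both assays. The SE is the log2 fold change over the square root of F. The pipeline was tested on simulated data. Members and gene lists were chosen with earlier results of these data known; named genes were the members, the called list genes with the largest changes, and the 3 genes nearest each member by Pearson's r of log2 CPM (prior count 2). Other list genes, such as dkc-1 and toe-1, were named after their values were seen. Of the lists, riok-1, rrbs-1, sams-3, sams-4, sams-5 and him-3 were not analysed here.

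Same-numbered libraries of Fed and Starved did not pair: r of their deviations exceeded 0.1 in 1 of 6 pairs in mRNA and 0 of 6 in footprints. In the knockdowns same-lettered libraries of different groups paired in part. Their r exceeded 0.1 in 5 of 12 pairs in mRNA and 6 of 12 in footprints. It ran from -0.21 to 0.48 and from -0.16 to 0.50. The pairs of letter C stood at 0.48, 0.30 and 0.35 in mRNA and at 0.50, 0.36 and 0.30 in footprints. The 2 assays of a library exceeded 0.1 in 15 of 24 pairs. Alternatives used DESeq2 1.42.0, other scalings and filters, blocks and left-out libraries. Counting error and the number of libraries limit precision.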

Additional observations from a re-analysis of the deposited data

Results flagged for a closer look

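Among 70 sets of 1 gene, 1 group and 1 assay, 2 held a library far from the others, and chance alone gives about 1 in 20 such sets. Footprints of C27F2.4 stood at 54.2 CPM in E02H1.1 B, against 64.2 to 65.7 CPM in the other E02H1.1 RNAi libraries. nath-10 mRNA stood at 126.4 CPM in Starved 1, against 131.6 to 133.8 CPM in the other Starved libraries.

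The effects of the 2 knockdowns differed, in the direct contrast of E02H1.1 RNAi with C27F2.4 RNAi (edgeR, n = 8 libraries), for the targeted genes: by -1.70 for E02H1.1 mRNA, by -1.93 for E02H1.1 footprints, by 0.80 for C27F2.4 mRNA, by 1.59 for C27F2.4 footprints and by 0.79 for C27F2.4 TE, all on the log2 scale. In mRNA and footprints such a difference was built into the design, since each gene was the RNAi target in its own group only.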

How the results depend on the processing

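Both targets kept their calls in their own knockdowns in mRNA and footprints under every alternative run, from -1.87 to -1.77 and from -2.19 to -1.91 for E02H1.1 and from -1.03 to -0.95 and from -1.64 to -1.54 for C27F2.4. Of 1202 single-gene values under an alternative, 1177 kept their status, called or not called, 19 lost a call, 6 gained one and 0 reversed. Most of these values belong to results that were not called in the main fit. The TE call of nath-10 in Starved was lost in 12 of 19 alternatives. That of C27F2.4 mRNA under E02H1.1 RNAi was lost in 6 of 14. The number of enzymes called moved as follows. In mRNA of Starved against Fed it was 1 with library totals only and 0 to 1 on leaving out 1 library. Under E02H1.1 RNAi it was 1 to 3 in mRNA and 1 to 2 in footprints on leaving out 1 library. In TE of Starved against Fed it was 0 with library totals only, 0 with the replicate block, 0 without Starved 1 and Starved 5 together and 0 to 1 on leaving out 1 library. The replicate block otherwise gave 3 enzymes called in mRNA under E02H1.1 RNAi (2 without it) and the same number elsewhere. The numbers did not pair the Fed and Starved libraries. With this block the TE change of nath-10 in Starved was -0.19 (edgeR adjusted p = 0.0746), against -0.18 in the main fit. In the knockdowns the letters paired the libraries in part. Apart from fits with fewer libraries, the causes were not tested. All-gene counts moved by over 1.5 times mainly between the knockdowns (445 in mRNA, 84 to 1713 without 1 library and 446 to 1446 otherwise; 134 in footprints, 69 to 413 and 133 to 430; 5 in TE, 1 to 6 and 5 to 260), in TE of C27F2.4 RNAi (94, 9 to 227 and 82 to 662), of E02H1.1 RNAi (1160, 594 to 1080 and 1136 to 2227) and of Starved (665, 422 to 746 and 477 to 1145), and in C27F2.4 RNAi mRNA (1864, 1189 to 1980 and 1491 to 2492) and footprints (760, 482 to 778 and 646 to 1343). Depth limits metl-5, nsun-5 and E02H1.1 most, with as few as 57, 93 and 37 footprint counts in a library.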

Other observations

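The control groups of the 2 experiments, normalized apart and not tested against each other, differed more for some enzymes than for others. E02H1.1 footprints averaged 45.7 ± 3.05 CPM in Empty_vector (SD, n = 4) and 29.1 ± 2.04 CPM in Fed (SD, n = 6), while its mRNA averaged 67.8 ± 5.42 and 59.6 ± 4.15 CPM. fib-1 footprints averaged 836.1 ± 41.4 CPM in Empty_vector and 682.8 ± 16.97 CPM in Fed, and nath-10 footprints 195.6 ± 4.76 and 197.8 ± 5.59 CPM.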
